A study of Homo sapiens with 32 samples.

Results

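The 10 oncofetal liver genes AFP, GPC3, H19, IGF2, IGF2BP1, IGF2BP2, IGF2BP3, LIN28B, SOX9 and DLK1 were followed in liver tumour cells after inhibition or depletion of histone deacetylases. Members were all probes that carried one of these gene symbols in the deposited table. They were 12 probes of 24526 in all, and 10 genes of 18310 after symbols were brought up to date. IGF2 and DLK1 were each read by 2 probes and the other 8 genes by 1 probe. The study used 32 one-colour Illumina bead arrays, 4 in each of 8 groups, and measured total RNA of a pair of human cell lines, Huh7, described in the labels as hepatocellular carcinoma, and HepG2, described as hepatoblastoma. Both lines were given either the solvent DMSO or SAHA (vorinostat), a small molecule that blocks the zinc-dependent histone deacetylases of several classes. In separate groups, both lines were given either scrambled siRNA or siRNA directed at HDAC2, which encodes a histone deacetylase of class I. The comparisons ask how each line responds to the broad inhibitor and to loss of this single enzyme. The labels state no dose, duration or siRNA sequence. They also do not say that replicate arrays are independent cultures, and p-values then measure only the spread between these arrays, which may be technical.

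Oncofetal genes are active in the fetal liver, are switched down as hepatocytes mature after birth, and return in many liver tumours. Several act on growth. IGF2 is a fetal growth factor expressed from the paternal allele, and H19 is a long noncoding RNA expressed from the maternal allele of the same imprinted domain. LIN28B is an RNA-binding protein that blocks maturation of let-7 microRNAs, and the IGF2BP proteins bind mRNAs, that of IGF2 among them, and are themselves targets of let-7. Histone deacetylases remove acetyl groups from histones and other proteins and work in repressor complexes at many genes.

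All 8 hepatocyte markers were detected on at least 29 of 32 arrays, while PTPRC, CD3E and HBB were detected on 1 array each and COL3A1 and TEK on none; the macrophage gene CD68 was detected on all 32, LYZ on 30 and the endothelial gene PECAM1 on 29, and the other 7 leukocyte, stromal and endothelial markers on 4 to 17 arrays. In Huh7 the summed raw signal of the hepatocyte markers ran from 81400 to 104000 with DMSO and from 27000 to 47400 with SAHA, and in HepG2 from 157000 to 195000 and from 144000 to 164000. In the siRNA part the sum was 44300 to 47800 with scrambled siRNA and 37900 to 54800 with HDAC2 siRNA in Huh7, and 102000 to 116000 and 123000 to 156000 in HepG2. The part played by these shifts in the results was not tested. The array medians of raw signal lay between 118.2 and 195.5, and 48.3% to 54.9% of probes were above background. In Huh7 these medians ran from 146.5 to 193.2 with DMSO and from 118.2 to 164.3 with SAHA. In HepG2 they ran from 136.1 to 187 and from 134.9 to 150.3. The marker sums above were not normalized, so they also hold differences in array brightness. The HDAC2 probe read 9.82% of its control level with HDAC2 siRNA in Huh7 and 12.1% in HepG2. In whole-culture RNA, fewer cells of a kind and less RNA per cell cannot be told apart.

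The RefSeq promoter table (build GRCh38.p14) held 5 of the 10 genes. The 250 bases before the annotated start are printed for AFP, which fell in 3 of the 4 treatment comparisons, for H19 and IGF2BP3, which had the deepest falls with SAHA, and for both LIN28B starts, since LIN28B had the deepest fall with HDAC2 siRNA. Capitals mark the searched motifs on either strand. The TATA box was searched as TATAAA. The CCAAT box was searched by the letters of its name, which read ATTGG on the opposite strand. The GC box was searched as GGGCGG, read CCGCCC on the opposite strand. The E-box was searched as CACGTG, which reads alike on both strands.
AFP, chr4:73435971-73436220, plus strand: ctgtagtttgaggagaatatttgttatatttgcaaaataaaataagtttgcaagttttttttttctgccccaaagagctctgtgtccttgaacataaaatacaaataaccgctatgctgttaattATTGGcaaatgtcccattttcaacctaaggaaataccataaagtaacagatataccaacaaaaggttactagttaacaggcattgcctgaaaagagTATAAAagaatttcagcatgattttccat
H19, chr11:2001267-2001516, minus strand: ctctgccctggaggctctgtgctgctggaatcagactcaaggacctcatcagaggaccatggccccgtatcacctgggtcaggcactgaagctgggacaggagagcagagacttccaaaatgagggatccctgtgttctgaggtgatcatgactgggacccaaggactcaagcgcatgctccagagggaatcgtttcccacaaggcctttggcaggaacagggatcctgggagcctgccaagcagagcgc
IGF2BP3, chr7:23470492-23470741, minus strand: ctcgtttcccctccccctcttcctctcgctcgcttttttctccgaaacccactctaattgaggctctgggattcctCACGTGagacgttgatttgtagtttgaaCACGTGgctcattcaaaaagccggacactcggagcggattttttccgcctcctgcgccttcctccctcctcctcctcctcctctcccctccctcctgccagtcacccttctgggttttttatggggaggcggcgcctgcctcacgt
LIN28B, first start, chr6:104940715-104940964, plus strand: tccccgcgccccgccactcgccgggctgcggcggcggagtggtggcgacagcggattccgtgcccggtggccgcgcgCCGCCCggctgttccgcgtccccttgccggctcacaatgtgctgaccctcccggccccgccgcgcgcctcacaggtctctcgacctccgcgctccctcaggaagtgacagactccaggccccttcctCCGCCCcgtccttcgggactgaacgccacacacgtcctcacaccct
LIN28B, second start, chr6:104956857-104957106, plus strand: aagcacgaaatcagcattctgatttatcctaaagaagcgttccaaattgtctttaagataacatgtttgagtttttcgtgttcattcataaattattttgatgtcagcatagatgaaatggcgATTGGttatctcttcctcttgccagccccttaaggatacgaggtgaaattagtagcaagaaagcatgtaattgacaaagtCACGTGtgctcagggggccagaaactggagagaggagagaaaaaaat
The AFP window had a TATA box whose first letter lay 29 bases before the start, a CCAAT box at 125 bases, 1 CpG and 31.6% G and C. The H19 window held none of the searched motifs, with 4 CpG. IGF2BP3 had 2 E-boxes, at 174 and 146 bases, and 15 CpG. The first LIN28B start had 2 GC boxes and 33 CpG, and the second had a CCAAT box at 127 bases, an E-box at 47 bases and 6 CpG. Over 35114 promoters of the same length, the TATA box occurred in 10.72%, the CCAAT box in 32.01%, the GC box in 42.64% and the E-box in 6.35%, and the median CpG count was 11. These matches describe the letters only; no binding was measured.

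Signals are log2 values after background correction and quantile normalization, listed in replicate order 1 to 4, and a change is the difference of group means with the standard error (SE) of a limma model fitted to all genes. A gene was called when its limma p, adjusted by Benjamini-Hochberg over 12973 genes, was under 0.05. Levels of different probes are not compared. With SAHA in Huh7, 9 of the 10 genes were called, 3 higher and 6 lower, against 60.7% of all genes tested (31.6% higher and 29.1% lower). The median change of the 10 was -0.72, against 0.01 over all genes, and in 9 of 10 the SAHA and DMSO arrays did not overlap, as in 55% of all genes. With SAHA in HepG2, 7 were called, 1 higher and 6 lower, against a background of 54.5% (26.9% higher and 27.6% lower), with a median of -0.55 against -0.01 and 7 genes without overlap, against 52.3% of all genes. With HDAC2 siRNA, 6 were called in Huh7, 4 higher and 2 lower, against 45.3% (22.9% and 22.4%), and 6 in HepG2, 2 higher and 4 lower, against 36.6% (18.8% and 17.9%). Their median changes were 0.13 and -0.19, against -0.01 and 0.01 over all genes, and the groups did not overlap for 6 and 5 genes, against 46% and 26.5% of all genes. The genes differed among themselves in the direction of their response, as described for each below.

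**Figure D1:**
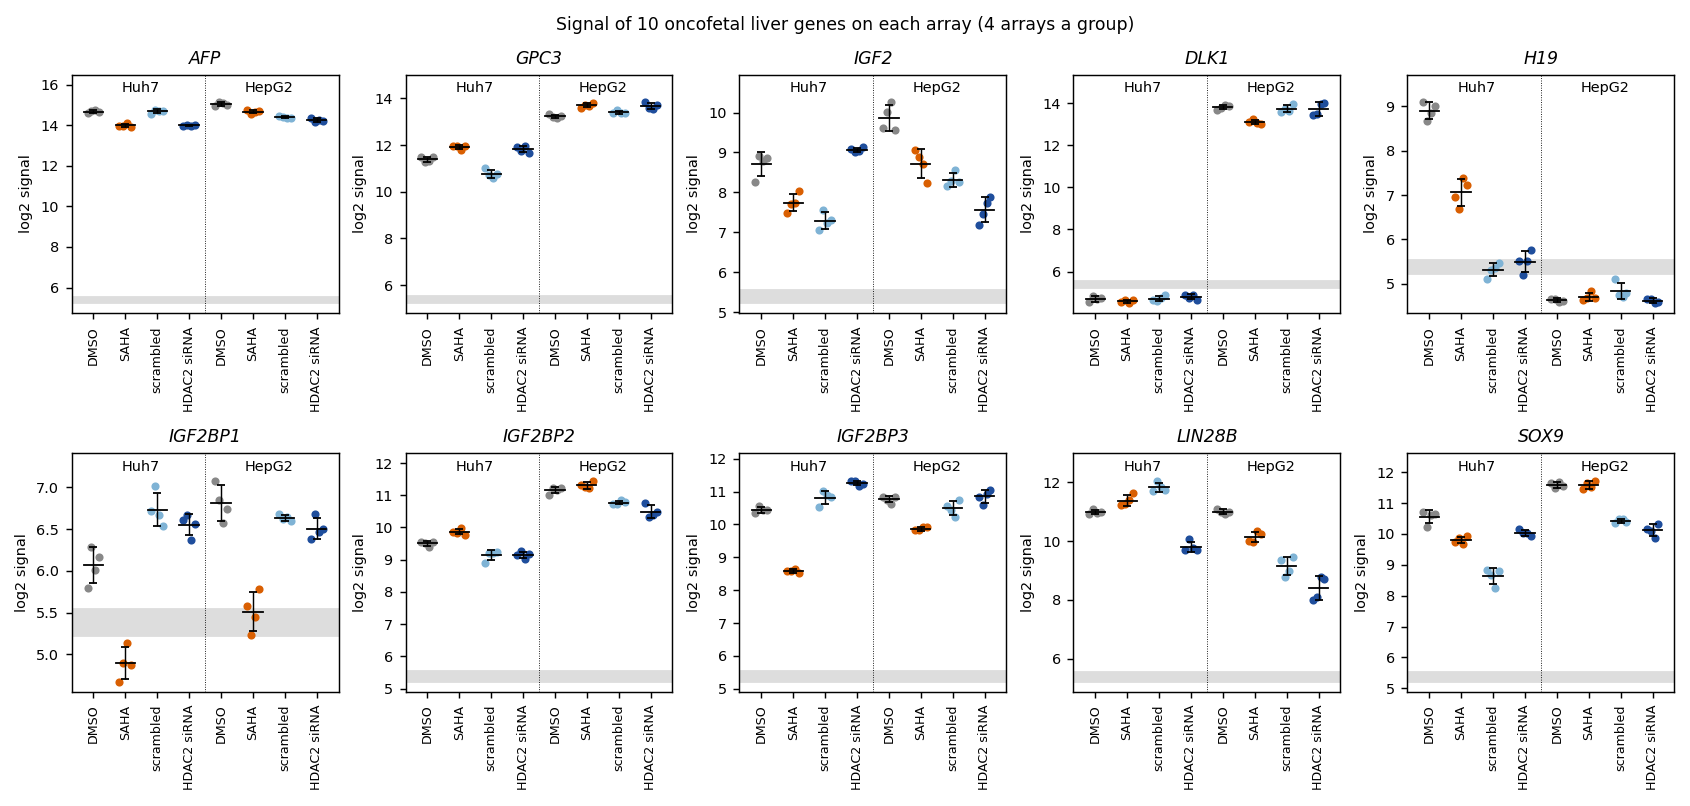
Log2 signal of the 10 genes (vertical axes) on each of the 32 arrays (points), in 8 groups of 4, Huh7 left and HepG2 right of the dotted line; bars are means and whiskers SD. The grey band, 5.21 to 5.54, is the range over arrays of the lowest detected signal: DLK1 in Huh7 and H19 in HepG2 lie below it, and AFP lies between 13.92 and 15.14 on all arrays.

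AFP encodes alpha-fetoprotein, the main plasma protein of the fetus and a serum marker of liver cancer. Its raw signal was 31.2% to 86.4% of that of the brightest probe on the same array. In Huh7 the 4 DMSO arrays read 14.61, 14.70, 14.77 and 14.65, and the SAHA arrays 13.95, 13.98, 14.13 and 13.92. Every SAHA array was below every DMSO array, a 1.61-fold fall (log2 change -0.69, SE 0.07, limma adjusted p = 1.96e-09). In Huh7 the scrambled arrays read 14.57, 14.78, 14.70 and 14.73 and the HDAC2 siRNA arrays 13.99, 14.02, 13.98 and 14.00, again without overlap and with a fall of almost the same size, 1.62-fold (log2 change -0.69, SE 0.07, limma adjusted p = 4.35e-09).

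In HepG2 the AFP fall with SAHA was smaller: 14.97, 15.14, 15.11 and 15.01 with DMSO against 14.77, 14.58, 14.68 and 14.69 (log2 change -0.38, 1.30-fold lower, limma adjusted p = 6.21e-05). With HDAC2 siRNA the arrays read 14.37, 14.18, 14.26 and 14.19 against 14.45, 14.44, 14.39 and 14.37 with scrambled siRNA. Those groups overlapped and the change of -0.16 was not called (limma adjusted p = 0.101); it read 0.27 when each array was scaled to one median. AFP was therefore called lower in 3 of the 4 treatment comparisons. The Huh7 and HepG2 changes differed by 0.31 with SAHA (limma adjusted p = 0.0155) and by 0.54 with the siRNA (limma adjusted p = 0.000155), the fall being larger in Huh7 both times; with arrays scaled to one median the differences were 0.50 and 1.11.

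GPC3, a heparan sulphate proteoglycan anchored at the cell surface and used as a tissue marker of hepatocellular carcinoma, rose in all 4 comparisons. In Huh7 it read 11.49, 11.28, 11.33 and 11.49 with DMSO and 11.97, 11.95, 11.80 and 11.96 with SAHA (log2 change 0.52, 1.44-fold, SE 0.09, limma adjusted p = 1.42e-05). In HepG2 it read 13.33, 13.20, 13.18 and 13.23 with DMSO and 13.59, 13.70, 13.69 and 13.81 with SAHA (log2 change 0.46, 1.38-fold, limma adjusted p = 8.82e-05). Neither pair of groups overlapped. Scaling each array to one median gave 0.19 in Huh7 (limma adjusted p = 0.222).

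The largest GPC3 rise came with HDAC2 siRNA in Huh7, where the scrambled arrays read 11.02, 10.72, 10.57 and 10.75 and the siRNA arrays 11.94, 11.76, 11.94 and 11.66. This was 2.08-fold (log2 change 1.06, limma adjusted p = 8.06e-11). In HepG2 the arrays read 13.36, 13.51, 13.38 and 13.38 with scrambled and 13.83, 13.59, 13.54 and 13.73 with HDAC2 siRNA, a 1.20-fold rise (log2 change 0.26, limma adjusted p = 0.0265). That call was lost in a fit of those 8 arrays alone (limma adjusted p = 0.133) and without HDAC2 siRNA replicate 1 (0.0935), replicate 4 (0.063) or scrambled replicates 1 (0.0615), 3 (0.0541) or 4 (0.0549). With arrays scaled to one median the rise was 0.55 (limma adjusted p = 0.00121). The HepG2 change was 0.79 smaller than the Huh7 change (limma adjusted p = 1.74e-05), or 0.32 smaller with arrays scaled to one median (interaction -0.32, limma adjusted p = 0.187).

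IGF2, the fetal growth factor that signals through the IGF1 and insulin receptors, moved in opposite directions with the treatments in Huh7. The first probe (ILMN_2413956) read 8.27, 8.92, 8.78 and 8.85 with DMSO and 7.49, 7.71, 7.73 and 8.03 with SAHA, a 1.95-fold fall (log2 change -0.97, SE 0.18, limma adjusted p = 2e-05). In the siRNA part it read 7.05, 7.56, 7.23 and 7.31 with scrambled and 9.08, 9.02, 9.04 and 9.13 with HDAC2 siRNA, a 3.43-fold rise (log2 change 1.78, limma adjusted p = 9.66e-10). All 4 HDAC2 siRNA arrays exceeded the scrambled arrays. They also exceeded the DMSO arrays of the same line, which belong to the other part of the series.

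In HepG2 IGF2 fell with both treatments. It read 9.63, 10.01, 10.26 and 9.55 with DMSO and 9.07, 8.88, 8.71 and 8.23 with SAHA (log2 change -1.14, 2.20-fold lower, limma adjusted p = 2e-06). It read 8.15, 8.28, 8.57 and 8.26 with scrambled and 7.17, 7.46, 7.74 and 7.89 with HDAC2 siRNA (log2 change -0.75, 1.68-fold lower, limma adjusted p = 0.00114). The siRNA effect thus differed between lines by -2.53 (HepG2 minus Huh7, limma adjusted p = 2.92e-09), the widest line difference of the 10 genes. The other IGF2 probe, ILMN_2298035, was not detected on any of the 32 arrays and gave no second reading.

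DLK1, an imprinted transmembrane protein of the Notch ligand type that marks hepatoblasts, was a HepG2 transcript. In Huh7 neither of its probes gave a signal well above background on any of the 16 arrays. By the brighter probe (ILMN_1797519), HepG2 was at least 359.5-fold higher than Huh7 with DMSO (limma adjusted p = 1.09e-32). With scrambled siRNA it was at least 339-fold higher (limma adjusted p = 1.72e-32). For these bounds the Huh7 arrays were raised to the lowest detected signal of each array. The bounds hold only for that probe under the main processing. Its fitted log2 differences were 9.12 and 9.03, and the lowest over the alternatives were 6.90 and 6.81. The second probe gave 6.87 and 6.49. In HepG2 the brighter probe (ILMN_1797519) read 13.70, 13.78, 13.92 and 13.88 with DMSO and 13.12, 13.26, 13.06 and 13.00 with SAHA. All SAHA arrays were lower (log2 change -0.71, 1.64-fold lower, SE 0.12, limma adjusted p = 5.11e-06), and the second probe fell by 0.67 (limma adjusted p = 4.62e-06).

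With HDAC2 siRNA in HepG2, DLK1 read 13.43, 13.48, 13.97 and 14.04 against 13.60, 13.72, 13.65 and 13.98 with scrambled siRNA. The groups overlapped and the change was -0.01, with a 95% interval up to 0.23 (limma adjusted p = 0.965). The second probe gave 0.14 (limma adjusted p = 0.352). The SAHA and siRNA changes of DLK1 in HepG2 differed by -0.70 (limma adjusted p = 0.00071).

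H19 was measured above background on every array only in the SAHA part of Huh7. It read 9.09, 8.67, 8.85 and 8.99 with DMSO and 6.96, 6.69, 7.37 and 7.24 with SAHA. The groups were far apart, and under the main processing SAHA left 28.0% of the control level (log2 change -1.84, SE 0.13, limma adjusted p = 7.5e-14). Over the processing alternatives that gave a value, the change ran from -2.09 to -1.26 and stayed called. In the siRNA part the same line stood near the detection limit: 5.11, 5.32, 5.37 and 5.47 with scrambled, detected on 1 of 4 arrays, and 5.52, 5.21, 5.51 and 5.77 with HDAC2 siRNA, detected on 3 of 4. The change of 0.18 was not called (limma adjusted p = 0.257). In HepG2 the H19 probe was not well above background on any of 16 arrays, and no fold is given. H19 and IGF2 lie in 1 imprinted domain, and in Huh7 both fell with SAHA, whereas with HDAC2 siRNA IGF2 rose and the H19 change was not called.

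The IGF2BP family consists of RNA-binding proteins with KH and RRM domains that stabilise or localise mRNAs; IGF2BP1 and IGF2BP3 are largely fetal, while IGF2BP2 stays on in adult tissues. IGF2BP3 and H19 had the largest falls of the 10 genes with SAHA in Huh7. IGF2BP3 read 10.34, 10.55, 10.43 and 10.43 with DMSO and 8.58, 8.59, 8.66 and 8.52 with SAHA, leaving 27.7% (log2 change -1.85, SE 0.11, limma adjusted p = 7.91e-16). In HepG2 it read 10.82, 10.76, 10.63 and 10.83 with DMSO and 9.82, 9.82, 9.93 and 9.91 with SAHA (log2 change -0.89, 1.85-fold lower, limma adjusted p = 1.34e-08). The fall was smaller in HepG2 by 0.96 (limma adjusted p = 2.55e-06).

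With HDAC2 siRNA IGF2BP3 moved the other way by small amounts. In Huh7 it read 10.54, 11.02, 10.88 and 10.84 with scrambled and 11.33, 11.31, 11.17 and 11.23 with the siRNA (log2 change 0.44, limma adjusted p = 0.000826), or 0.26 (limma adjusted p = 0.118) with arrays scaled to one median. In HepG2 it read 10.58, 10.45, 10.24 and 10.75 against 10.84, 10.59, 10.94 and 11.04 with the siRNA, groups that overlapped (log2 change 0.35, limma adjusted p = 0.00928). The HepG2 call was lost in a fit of its 8 arrays alone (limma adjusted p = 0.119) and without scrambled replicate 3 (0.0587).

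IGF2BP1 fell with SAHA in both lines. In Huh7 it read 5.79, 6.29, 6.01 and 6.17 with DMSO and 4.67, 4.89, 5.14 and 4.87 with SAHA, where no array was well above background. Under the main processing the fall was at least 1.70-fold (fitted log2 change -1.17, SE 0.13, limma adjusted p = 1.96e-09). The HepG2 arrays read 7.08, 6.85, 6.58 and 6.74 with DMSO and 5.58, 5.24, 5.45 and 5.78 with SAHA, detected on 3 of 4 (log2 change -1.30, limma adjusted p = 2.98e-10). Without background correction these changes shrank to -0.45 in Huh7 and -0.52 in HepG2, both still called.

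With HDAC2 siRNA the IGF2BP1 signal was 6.61, 6.67, 6.37 and 6.56 in Huh7, against 6.72, 7.02, 6.67 and 6.54 with scrambled siRNA. In HepG2 it was 6.38, 6.68, 6.46 and 6.50 against 6.68, 6.62, 6.64 and 6.60. Both pairs overlapped, and the changes of -0.18 and -0.13 were not called (limma adjusted p = 0.266 and 0.466).

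No IGF2BP2 change exceeded 0.36 in size in the 4 treatment comparisons. In Huh7 it read 9.56, 9.52, 9.38 and 9.56 with DMSO and 9.87, 9.84, 9.98 and 9.78 with SAHA (log2 change 0.36, limma adjusted p = 0.00143), but -0.018 (limma adjusted p = 0.919) with each array scaled to one median, so its direction rests on the scaling. The HepG2 arrays gave 11.02, 11.21, 11.17 and 11.23 with DMSO and 11.31, 11.25, 11.23 and 11.46 with SAHA (log2 change 0.15, limma adjusted p = 0.182). With HDAC2 siRNA the Huh7 change was 0.01 (limma adjusted p = 0.97), from 8.91, 9.22, 9.21 and 9.23 to 9.14, 9.27, 9.01 and 9.18.

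In HepG2 IGF2BP2 read 10.73, 10.72, 10.85 and 10.79 with scrambled and 10.77, 10.32, 10.40 and 10.49 with the siRNA. These groups overlapped, although the change was called (log2 change -0.28, limma adjusted p = 0.0216). The call was lost with arrays scaled to one median (-0.17, 0.351), in a fit of the 8 arrays alone (limma adjusted p = 0.149) and without scrambled replicate 3 (0.0584) or HDAC2 siRNA replicate 2 (0.0893) or 3 (0.0644). Over the 4 comparisons the family therefore split: IGF2BP1 and IGF2BP3 were each called lower with SAHA in both lines, and IGF2BP2 in neither.

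LIN28B, the block on let-7 maturation, had the deepest fall of the 10 genes with HDAC2 siRNA. In Huh7 it read 11.69, 12.06, 11.83 and 11.75 with scrambled and 9.70, 10.06, 9.76 and 9.71 with HDAC2 siRNA, leaving 24.5% (log2 change -2.03, SE 0.15, limma adjusted p = 2.65e-12). The HepG2 signal was 9.35, 8.79, 8.99 and 9.47 with scrambled and 8.00, 8.09, 8.77 and 8.71 with the siRNA (log2 change -0.76, 1.69-fold lower, limma adjusted p = 0.000227). Neither pair overlapped, and the HepG2 change was smaller by 1.27 (limma adjusted p = 2.38e-05).

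With SAHA the lines differed in direction for LIN28B. In HepG2 it read 11.11, 10.98, 10.92 and 10.98 with DMSO and 10.01, 9.97, 10.33 and 10.25 with SAHA (log2 change -0.86, 1.81-fold lower, limma adjusted p = 1.74e-05). In Huh7 it read 10.91, 11.08, 10.94 and 11.01 with DMSO and 11.22, 11.25, 11.41 and 11.63 with SAHA (log2 change 0.39, limma adjusted p = 0.0276). The rise in Huh7 was the less firm of the pair. It was 0.02 (limma adjusted p = 0.939) with arrays scaled to one median and was not called without DMSO replicate 1 (0.0604) or 3 (0.0548) or SAHA replicate 3 (0.0536) or 4 (0.109). The difference between lines was -1.25 (HepG2 minus Huh7, limma adjusted p = 1.44e-05).

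SOX9, a transcription factor of the biliary lineage and of liver progenitors, fell with SAHA and rose with HDAC2 siRNA in Huh7, the directions also seen for IGF2. It read 10.72, 10.24, 10.62 and 10.66 with DMSO and 9.75, 9.85, 9.68 and 9.93 with SAHA, a 1.69-fold fall (log2 change -0.76, SE 0.12, limma adjusted p = 1.66e-06). It read 8.84, 8.67, 8.25 and 8.81 with scrambled and 10.16, 10.02, 10.03 and 9.94 with HDAC2 siRNA, a 2.63-fold rise (log2 change 1.39, limma adjusted p = 3.41e-11). In both comparisons the groups did not overlap. Every HDAC2 siRNA array still lay below every DMSO array of Huh7, unlike for IGF2. Median scaling of the arrays gave -1.17 for the SAHA fall.

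In HepG2 SOX9 read 11.65, 11.47, 11.69 and 11.56 with DMSO and 11.47, 11.66, 11.51 and 11.73 with SAHA, overlapping groups with a change of 0.00 (95% interval up to 0.24, limma adjusted p = 0.979). With HDAC2 siRNA it read 10.16, 10.10, 9.86 and 10.33 against 10.36, 10.49, 10.49 and 10.39 with scrambled siRNA (log2 change -0.32, limma adjusted p = 0.0343). That last call was lost in a fit of the 8 arrays alone (limma adjusted p = 0.101), with arrays scaled to one median (0.171) and without scrambled replicates 2 (0.0761) or 3 (0.074) or HDAC2 siRNA replicates 2 (0.0591) or 3 (0.143). The line difference was 0.75 with SAHA (limma adjusted p = 0.00035) and -1.71 with the siRNA (limma adjusted p = 2.23e-09).

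**Figure D2:**
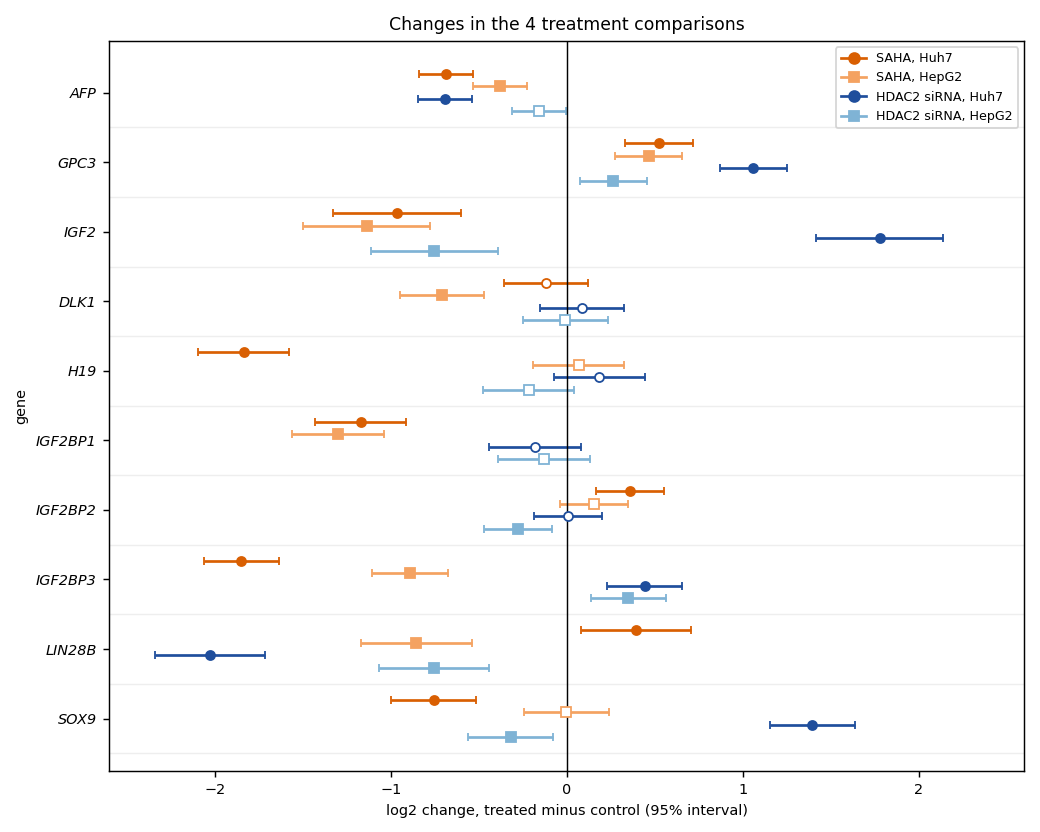
Log2 change (horizontal axis, treated minus control, with 95% interval) of each gene in the 4 treatment comparisons, circles for Huh7 and squares for HepG2; filled symbols were called at adjusted p under 0.05. GPC3 lies to the right of 0 in all 4. Among genes called with both treatments in Huh7, IGF2, IGF2BP3, LIN28B and SOX9 lie on opposite sides of 0 with SAHA and with the siRNA. DLK1 in Huh7 and H19 in HepG2 were at background in both groups.

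The line differences above were tested as interactions. With SAHA 6 of 10 genes differed between the lines (AFP, DLK1, H19, IGF2BP3, LIN28B and SOX9), against 52.2% of all genes. With HDAC2 siRNA 5 of 10 differed (AFP, GPC3, IGF2, LIN28B and SOX9), against 37.2% of all genes. For DLK1 and H19 the difference arises because 1 line was at background, so it cannot show that the lines respond differently.

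The change with SAHA was next compared with the change with HDAC2 siRNA within each line, from separate control arrays. In Huh7 the changes differed for 8 of 10 genes, 2 higher and 6 lower with SAHA, against 54.8% of all genes (29% higher and 25.7% lower). The largest differences (SAHA minus siRNA) were IGF2 at -2.74 (limma adjusted p = 8.57e-11), LIN28B at 2.42 (5.61e-11), IGF2BP3 at -2.29 (3.78e-14), and SOX9 at -2.15 (2.48e-12). The fitted gaps of H19 (-2.02, 4.22e-11) and IGF2BP1 (-0.99, 2.29e-05) are no measured sizes. H19 stood near the detection limit in the siRNA part and had little room to fall there, so its gap cannot show that the treatments differ, and no IGF2BP1 array was above background with SAHA. Without background correction these gaps were -1.32 and -0.36. GPC3 differed by -0.54 (0.000928) and IGF2BP2 by 0.35 (0.0257), the last of which was 0.00044 with arrays scaled to one median (0.999). For AFP the difference was 0.01, with a 95% interval from -0.21 to 0.22 (limma adjusted p = 0.966).

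In HepG2 the treatments differed for 4 of 10 genes, 1 higher and 3 lower, against 48.7% of all genes (24.2% and 24.5%). IGF2BP3 differed by -1.24 (limma adjusted p = 3.01e-08), IGF2BP1 by -1.17 (2.47e-06), DLK1 by -0.70 (0.00071) and IGF2BP2 by 0.43 (0.00839), which turned to -0.012 (0.968) with arrays scaled to one median. Without background correction the IGF2BP1 gap was -0.46, still called (limma adjusted p = 9.34e-05), so its size is not well measured. LIN28B differed by -0.10 (95% interval from -0.54 to 0.34, limma adjusted p = 0.738), IGF2 by -0.39 (0.213), AFP by -0.22 (0.0821), GPC3 by 0.20 (0.223) and SOX9 by 0.31 (0.124). IGF2BP1 and IGF2BP3 thus were lower with SAHA than with the siRNA in both lines, whereas the gaps of SOX9 and LIN28B were called in Huh7 and not in HepG2; whether those gaps themselves differ between lines was not tested. The IGF2 and AFP gaps in HepG2 depended on the processing. That of IGF2 was called without background correction (-0.45, limma adjusted p = 0.0284) and with arrays scaled to one median (-0.75, 0.0123). That of AFP was called under 4 alternatives, with values from -0.22 to -0.67.

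**Figure D3:**
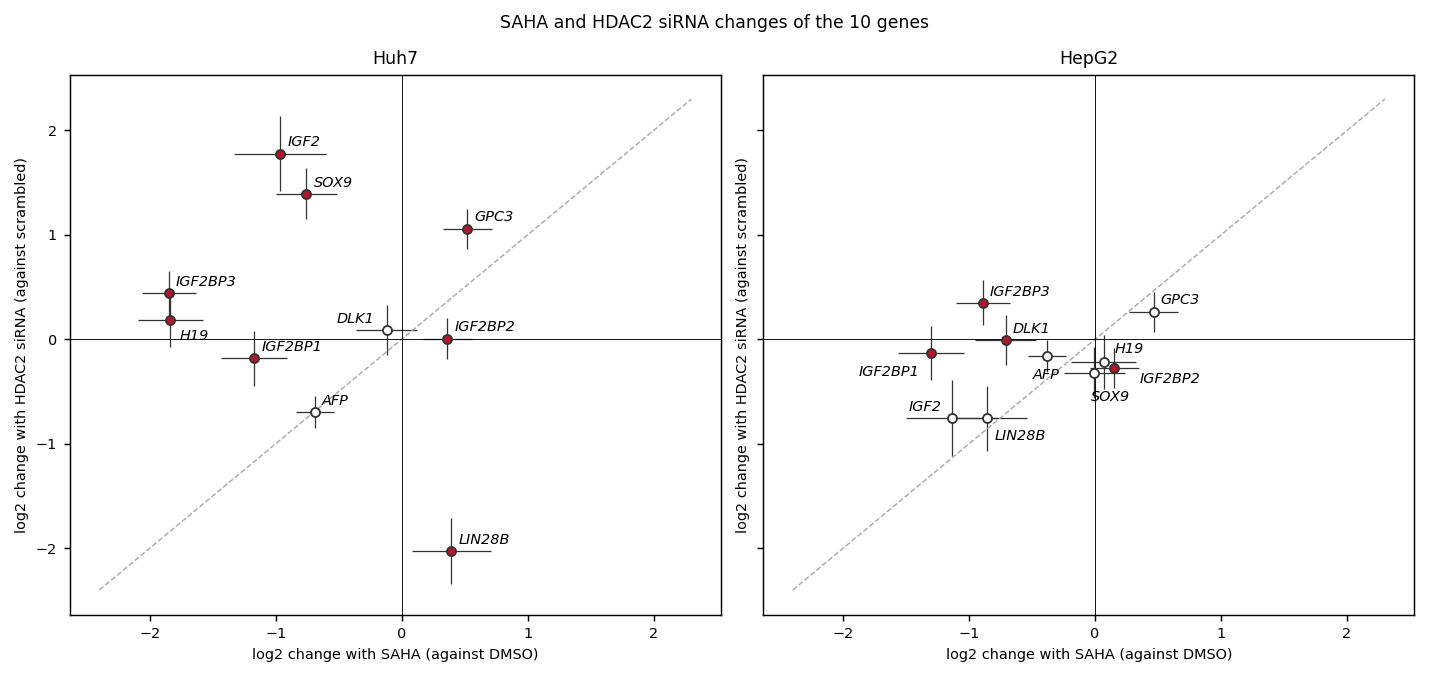
Log2 change with SAHA (horizontal axis) against log2 change with HDAC2 siRNA (vertical axis) for the 10 genes in Huh7 (left) and HepG2 (right), with 95% intervals; the dashed line is equality and red points had a called difference. In Huh7 IGF2, SOX9 and IGF2BP3 lie upper left, as does H19, whose siRNA change was not called. LIN28B lies lower right and AFP on the line there. In HepG2 6 of 10 points are open. DLK1 in Huh7 and H19 in HepG2 were at background.

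The control groups themselves differed between the parts of the series. With DMSO, 9 of 10 genes differed between the lines, 8 higher and 1 lower in HepG2, against 60% of all genes (30% each way). With scrambled siRNA 9 differed too, 5 higher and 4 lower, against 66.3% (31.4% and 34.9%). GPC3 was higher in HepG2 by 1.84 and 2.64, SOX9 by 1.04 and 1.79, IGF2BP2 by 1.65 and 1.63 and IGF2 by 1.15 and 1.03 in the DMSO and scrambled groups. AFP was 0.38 higher in HepG2 with DMSO (limma adjusted p = 6.5e-05) and 0.28 lower with scrambled siRNA (log2 difference -0.28, limma adjusted p = 0.00138). LIN28B differed between the lines by 0.01 with DMSO (limma adjusted p = 0.96) and was 2.68 lower in HepG2 with scrambled siRNA (log2 difference -2.68, limma adjusted p = 4.8e-16). H19 was at least 11.4-fold higher in Huh7 than in HepG2 with DMSO under the main processing (limma adjusted p = 2.38e-23). Its fitted log2 difference (HepG2 minus Huh7) was -4.27, and -2.32 without background correction, so the bound rests on that step.

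Within Huh7, the scrambled arrays differed from the DMSO arrays for 8 of 10 genes, 3 higher and 5 lower, against 44% of all genes (22.9% higher and 21.1% lower). H19 was lower with scrambled siRNA by a fitted log2 difference of -3.58 (limma adjusted p = 4.76e-20), or -1.98 without background correction; only 1 of the 4 scrambled arrays was above background, so its size is not well measured. SOX9 was lower (-1.92, 3.61e-14), as were IGF2 (-1.42, 9.28e-08) and GPC3 (-0.63, 1.79e-06), while LIN28B was higher (0.85, 3.39e-05). Within HepG2 6 of 10 differed, all lower with scrambled siRNA, against 45.1% of all genes (22.1% lower and 23% higher). The largest were LIN28B (-1.85, limma adjusted p = 2.21e-11), IGF2 (-1.54, 1.8e-08), SOX9 (-1.16, 1.62e-09) and AFP (-0.65, 2.03e-08). The IGF2BP3 call in that count (-0.26, limma adjusted p = 0.0444) was lost without the detection filter (0.0559) and without DMSO replicate 1 (0.0982), 2 (0.0725) or 4 (0.104) or scrambled replicate 2 (0.0953) or 3 (-0.17, 0.211). The brighter DLK1 probe was not called (-0.08, limma adjusted p = 0.609) but became a call with arrays scaled to one median (-0.35, 0.0287). The second DLK1 probe, tested singly, was called lower under the main processing (-0.33, limma adjusted p = 0.0145). AFP moved to -1.02 with arrays scaled to one median. In Huh7 AFP differed by 0.01 (limma adjusted p = 0.93), which became -0.30 (0.0248) with arrays scaled to one median. The part of the series and the control treatment cannot be told apart, and these gaps share their arrays with the treatment changes above. For IGF2, SOX9 and GPC3 in Huh7 the rise with HDAC2 siRNA started from a lower control level than that of the DMSO arrays.

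**Figure D4:**
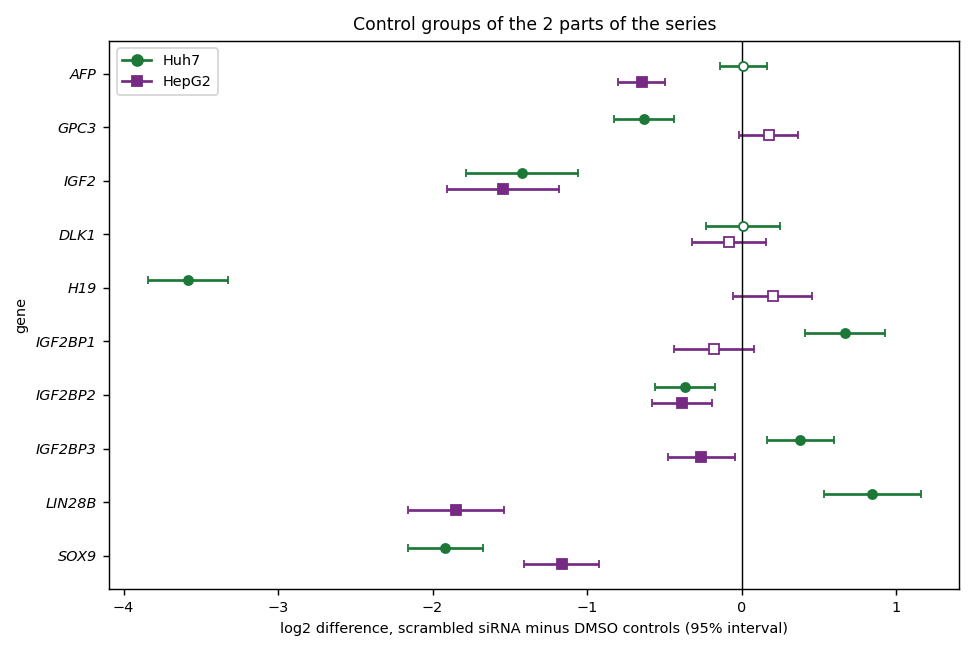
Log2 difference between the control groups, scrambled siRNA minus DMSO (horizontal axis, with 95% interval), for each gene in Huh7 (circles) and HepG2 (squares); filled symbols were called. H19 in Huh7 is at -3.58, with its scrambled arrays near the detection limit, IGF2 and SOX9 are below 0 in both lines, and LIN28B is above 0 in Huh7 and below it in HepG2.

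The genes whose signal ran most like each member over the 32 arrays, after removal of each line's mean, are given as a description; the points share arrays and treatments. They were SH2D4A (Pearson r 0.94) for AFP, YPEL2 (0.95) for GPC3, NR2F1 (0.91) for IGF2, BLM (0.86) for DLK1, ATP7B (0.96) for H19, IDH3B (0.95) for IGF2BP1, ALDOC (0.93) for IGF2BP2, RBPMS (0.97) for IGF2BP3, LYAR (0.91) for LIN28B and STK39 (0.92) for SOX9. H19 was detected on only 12 of the 32 arrays and DLK1 on 16, so their other points are background. Differences between the SAHA and siRNA parts of the series were not removed and enter all these correlations. Among the members, IGF2BP1 and IGF2BP3 ran most alike (0.90), followed by SOX9 and IGF2 (0.78) and LIN28B and AFP (0.73). GPC3 ran against AFP (-0.75), and IGF2BP2 against IGF2BP3 (-0.72) and IGF2BP1 (-0.70).

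The other genes of the members' pathways were taken from 9 lists with 133 genes, 113 of them tested. The shares of all genes called higher and lower, against which the counts below are to be read, were 31.6% and 29.1% with SAHA in Huh7, 26.9% and 27.6% with SAHA in HepG2, 22.9% and 22.4% with HDAC2 siRNA in Huh7 and 18.8% and 17.9% with HDAC2 siRNA in HepG2. Of 17 regulators of AFP and H19, 13 fell and 2 rose with SAHA in Huh7 (median -0.77) and 8 fell and 3 rose in HepG2 (median -0.29). ZHX2, a repressor of AFP and H19 in the mouse liver, had a log2 change of -3.80 in Huh7 (limma adjusted p = 4.29e-22) and of -1.64 in HepG2 (2.37e-13). CEBPA, a transcription factor of the mature hepatocyte, fell by 2.56 in Huh7 and was not called in HepG2 (0.21, 0.0726). FOXA1, a pioneer factor of liver enhancers, fell by 2.21 and 1.64. With HDAC2 siRNA 7 of the 17 rose and 3 fell in Huh7 (median 0.18), with FOXA1 at 1.07 and CEBPB at -1.37, and 2 rose and 6 fell in HepG2 (median -0.05), with CEBPA at -1.18. ZHX2 rose by 0.71 with HDAC2 siRNA in HepG2 (limma adjusted p = 1.57e-05). Whether any of these regulators bears on AFP or H19 here was not tested.

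All 3 relatives of AFP in the albumin family fell with SAHA in Huh7: GC, the vitamin D binding protein, by 1.78, AFM by a fitted 1.37 (at least 1.71-fold, since its SAHA arrays were at background) and ALB by 0.58. None was called in HepG2, where ALB changed by -0.04 (limma adjusted p = 0.767) and AFM and GC were at background. With HDAC2 siRNA in Huh7, AFM and GC rose by 1.26 and 1.11 while AFP fell, and ALB was not called (-0.14, 0.3). In HepG2 ALB fell by 0.71 with the siRNA (limma adjusted p = 2.65e-06). Of 16 genes of the mature hepatocyte, 12 fell and 2 rose with SAHA in Huh7 (median -0.61), and 5 fell and 3 rose in HepG2 (median -0.10). ASGR2, a subunit of the asialoglycoprotein receptor, led in Huh7 with a change of -4.16, and ARG1, the arginase of the urea cycle, led in HepG2, where it fell at least 2.14-fold to background. With HDAC2 siRNA 6 rose and 2 fell in Huh7, led by SERPINA1 (alpha-1 antitrypsin) at 1.06, and 5 rose and 4 fell in HepG2, led by FGA (fibrinogen alpha chain) at 1.84.

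In the IGF axis, 14 genes were tested. With SAHA 2 rose and 7 fell in Huh7 (median -0.44), whereas 7 rose and 1 fell in HepG2 (median 0.37). In Huh7 the IGF binding protein gene IGFBP2 rose by 3.02 and PAPPA, a protease that cleaves IGF binding proteins, fell by 1.45. In HepG2 the binding protein genes IGFBP4, IGFBP3 and IGFBP2 rose by 2.99, 3.58 and 3.20. With the siRNA 5 rose and 3 fell in Huh7, with IGFBP3 at -1.96 and GRB10, an adaptor of the insulin and IGF1 receptors, at 1.21. In HepG2 2 rose and 3 fell, with IGFBP1 at -1.88 and IGFBP4 at -1.19. Of 15 other imprinted genes, 3 rose and 7 fell with SAHA in Huh7, 2 and 5 in HepG2, 5 and 3 with the siRNA in Huh7 and 2 and 2 in HepG2. GNAS, the stimulatory G protein alpha subunit, led in Huh7 with both treatments: it went down by 1.65 with SAHA (log2 change -1.65) and up by 1.09 with HDAC2 siRNA.

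Of 12 genes of the LIN28 and let-7 axis, 5 rose and 5 fell with SAHA in Huh7, 2 and 3 in HepG2, 4 and 1 with the siRNA in Huh7 and 3 and 3 in HepG2. MYCN, a let-7 target, fell by 3.62 with SAHA in Huh7 (limma adjusted p = 5.69e-16). CCND2, a cyclin and let-7 target, rose at least 3.53-fold with SAHA in Huh7, by 2.92 on the log2 scale with SAHA in HepG2 (7.89e-17) and by 2.21 with HDAC2 siRNA in HepG2 (1.01e-12). MYC, an activator of LIN28B, fell by 1.39 with the siRNA in Huh7 (limma adjusted p = 1.29e-09). Whether this bears on LIN28B was not tested. The arrays gave no reading of mature let-7.

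Among 11 partners and bound transcripts of the IGF2BP proteins, 4 rose and 5 fell with SAHA in Huh7 (median -0.19), and 6 fell and none rose in HepG2 (median -0.47). With HDAC2 siRNA 2 rose and 4 fell in Huh7 (median -0.05), and 2 rose and 6 fell in HepG2 (median -0.33). ACTB, whose mRNA is a classic target of IGF2BP1, led with SAHA in Huh7 at -0.91. SYNCRIP, an RNA-binding partner, led with SAHA in HepG2 at -1.17. YBX1, another RNA-binding partner, led with HDAC2 siRNA in both lines at -1.51 and -0.99, and it also fell with SAHA, by 0.42 in Huh7 and 0.81 in HepG2.

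Among 11 glypican and heparan sulphate genes, the setting of GPC3, 3 rose and 6 fell with SAHA in Huh7, 3 and 3 in HepG2, 4 and 2 with the siRNA in Huh7 and 3 and 0 in HepG2. EXT2, a polymerase of heparan sulphate chains, led with SAHA, rising by 2.15 in Huh7 and 1.45 in HepG2. The glypican GPC4 led with the siRNA in Huh7, rising at least 1.88-fold from background, and the syndecan SDC1 led in HepG2 at 0.79. Of 17 liver progenitor and biliary genes, the setting of SOX9, 2 rose and 4 fell with SAHA in Huh7, and 9 rose and 3 fell in HepG2 (median 0.54). With HDAC2 siRNA 9 rose and 2 fell in Huh7 (median 0.40), and 5 rose and 3 fell in HepG2. ANXA4, an annexin, fell by 2.74 with SAHA in Huh7, and SALL4, a fetal stem cell factor, rose by 2.32 with SAHA in HepG2. SOX4, a SOX family relative, led with the siRNA in Huh7 at 1.72, and SPP1 (osteopontin) in HepG2 at -3.08.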

How the data were processed

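Total RNA was extracted with a Qiagen mini kit and labelled with an Ambion TotalPrep kit, per the labels' protocols. Per the submitters' processing notes, GenomeStudio 2011.1 was among the tools. The authors deposited, per the file headers, a table of linear probe intensity without normalization, used here, with a detection p-value for each probe and array; raw intensity ran from 68.6 to 56451. The authors' normalized intensity table, with 23.0% of values at or below 0, served as an alternative. Array steps were run in R 4.3.3 with limma 3.58.1. Background was removed by normexp from the detection p-values (offset 16), the 32 arrays were quantile-normalized, and log2 was taken of the deposited intensity so processed. A probe entered with detection p under 0.05 on at least 4 arrays (16121 probes), and a gene was read by its brightest probe (12973 genes, 2384 with more than 1 detected probe). A limma model with 8 group means (24 residual and 5.78 prior degrees of freedom) gave 12 contrasts, all two-sided. Where no array of a group was above detection, its signals were raised to the lowest detected signal of the array and the fold is given as "at least". Every such bound holds only under the main processing and can be smaller under the alternatives. The number of arrays limits the precision. Symbols of 3265 probes were updated through the RefSeq gene table, 20406 were current and 855 were not matched. No batch or chip is named in the labels or headers. Replicate numbers did not pair arrays: same-number deviations correlated at -0.14 to 0.262, over 0.1 in 4 of 16 pairs. Within a group arrays correlated at 0.98 to 0.996. The text names all 10 members, HDAC2, the first gene or genes by adjusted p of each pathway list in a treatment comparison, and the gene most like each member; the further comparisons given for such a gene were chosen after their values were seen. The members and lists were chosen with earlier results of these data known. Only the limma fit and its p adjustment were tested on simulated data, for the SAHA comparison in Huh7. That simulation started from normalized gene signals, so background correction, normalization and probe choice were not tested.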

Additional observations from a re-analysis of the deposited data

Results flagged for a closer look

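In 4 of 80 sets of 4 arrays, 1 array stood apart from the others of its group by more than Dixon's critical value of 0.829; chance alone gives about 1 in 20. GPC3 was low on replicate 3 of Huh7 with SAHA (11.80) and high on replicate 2 of HepG2 with scrambled siRNA (13.51). IGF2BP2 was low on replicate 1 of Huh7 with scrambled siRNA (8.91). LIN28B was high on replicate 2 of Huh7 with HDAC2 siRNA (10.06). These 4 came from different groups.

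The treatment change differed between the lines by a limma interaction (HepG2 change minus Huh7 change, adjusted p under 0.05) in 6 genes with SAHA. These were AFP (0.31), IGF2BP3 (0.96), LIN28B (-1.25), SOX9 (0.75), DLK1 (-0.59), which was at background in Huh7, and H19 (1.90), which was at background in HepG2. With HDAC2 siRNA 5 genes differed. These were AFP (0.54), GPC3 (-0.79), IGF2 (-2.53), LIN28B (1.27) and SOX9 (-1.71). The SOX9 and LIN28B differences had opposite signs with SAHA and with the siRNA.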

How the results depend on the processing

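Of 28 called treatment changes, 20 stayed called in the same direction under all alternatives that gave a value; H19, DLK1 and IGF2BP1 have none under detection on all 32 arrays (7255 genes tested). The other 8 are given with their values above: GPC3, IGF2BP2 and LIN28B with SAHA in Huh7, IGF2BP3 with the siRNA in Huh7, and GPC3, IGF2BP2, IGF2BP3 and SOX9 with the siRNA in HepG2. The causes were not tested. Over 2604 member values under alternatives, 2546 kept their side of the threshold, 45 lost the call and 10 gained it, and 3 turned sign with a call on at least 1 side. A further 49 values turned sign while called on neither side, 14 of them after scaling arrays to a common median. The 3 also came with that scaling: AFP, scrambled against DMSO in Huh7 (-0.30, adjusted p = 0.0248), IGF2BP2, SAHA in Huh7 (-0.018, 0.919), and IGF2BP2, SAHA minus siRNA in HepG2 (-0.012, 0.968). That scaling moved the median of all genes to -0.13 (SAHA, Huh7), -0.17 (SAHA, HepG2) and -0.21 (SAHA minus siRNA, HepG2). The share of calls that were higher was then 39.1% against 52% (SAHA, Huh7), 32.3% against 49.4% (SAHA, HepG2), 41.6% against 53% (SAHA minus siRNA, Huh7), 31.6% against 49.7% (HepG2), and 39% against 52.1% and 40.7% against 51.1% for the control groups of Huh7 and HepG2. It also made the SAHA minus siRNA gaps of AFP (-0.67, 0.000413) and IGF2 (-0.75, 0.0123) in HepG2 calls; the AFP gap was a call as well without background correction (0.0443), with normalization within each line (0.0409) and with an intensity trend (0.0451).

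With detection on all 32 arrays, 4396 of 7255 genes in place of 6772 of 12973 differed between lines with SAHA (60.6% against 52.2%), 5584 in place of 8595 between lines with scrambled siRNA (77.0% against 66.3%), and 2 members in place of 4 between the treatments in HepG2, where DLK1 and IGF2BP1 were then not tested. A fit of only the 8 arrays of the siRNA comparison in HepG2 called 2971 genes in place of 4749 and 2 members in place of 6; leaving out 1 array called 2 to 6 members, with 2 without scrambled replicate 3. With the replicate number as a block, 4 members in place of 6 were called for that comparison (4605 genes), with GPC3 at adjusted p = 0.0506 and SOX9 at 0.061, and 7 in place of 8 for SAHA minus siRNA in Huh7, with IGF2BP2 at 0.051; no other member's call changed in the 8 comparisons that this block allowed. Dim signals near the detection limit (H19, IGF2BP1) gave smaller changes without background correction. Chip or scan as a block was not run, since the headers name neither.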

Other observations

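A probe for INS-IGF2, a readthrough transcript that joins INS and IGF2, gave a further reading at the IGF2 locus. In HepG2 it read 6.78 ± 0.17 with DMSO (SD, n = 4, detected on 4 of 4 arrays) and 5.22 ± 0.37 with SAHA (SD, n = 4, detected on 1 of 4), a fitted log2 change of -1.56 (limma adjusted p = 5.58e-08). With HDAC2 siRNA in HepG2 it read 5.71 (detected on 3 of 4 arrays), against 5.42 with scrambled siRNA (2 of 4). This change of 0.29 was not called (limma adjusted p = 0.283), whereas that of the IGF2 probe was called at -0.75. In Huh7 the INS-IGF2 probe was detected on none of the 4 arrays with SAHA and none of the 4 with scrambled siRNA, so no size is given there. It was called lower with SAHA (limma adjusted p = 0.0166) and higher with HDAC2 siRNA (0.00215) in Huh7, the directions of the IGF2 probe. A further probe of the same transcript was not detected on any array.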
